A study of Bos taurus with 6 samples.

Results

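The HOX genes encode homeodomain transcription factors that specify position along the body axis, and they were followed here in cultured bovine subcutaneous preadipocytes. Members were taken by name, as every gene in the deposited table whose symbol is HOX, a cluster letter from A to D and a number. This gave 39 of the 23475 genes in the table, with 11 in the HOXA cluster, 10 in HOXB, 9 in HOXC and 9 in HOXD. The study isolated the cells from fat under the skin of 3 premature calves and sequenced their RNA 48 h after transfection. One group of 3 libraries received the bta-miR-484 agomir, a chemically modified double-stranded RNA that acts as added miRNA. The other 3 libraries, called control libraries, received the agomir NC, its negative control, in the same kind of cells and for the same 48 h. Whether the 3 libraries of a group came from separate animals or from separate dishes of the same cells is not stated, so p-values measure only the spread between these libraries, which may be technical.

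HOX genes lie in clusters in the order in which they act, those with low numbers toward the head end and those with high numbers toward the tail and the tips of the limbs. Genes with the same number in different clusters are paralogues, copies of an ancestral gene, and often act in overlapping regions. Fibroblasts and fat precursor cells keep much of the HOX pattern of their site of origin in culture, and fat depots of different body sites are known to differ in it. The study does not name the body site of this fat, so the HOX levels cannot be set against a known site.

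The labels call the cells adipocytes, and the study's methods use both adipocytes and preadipocytes for them. Among markers of preadipocytes and fibroblasts, the matrix genes COL1A1 and DCN stood at means of 5979 and 2989 FPKM over the 6 libraries, and the receptor gene PDGFRA at 166 FPKM. FPKM scales the fragments of a gene by the length of its transcript and by all mapped fragments of the library, so levels can be set side by side between genes. DLK1, a preadipocyte marker, was listed at 0 in every library, and CD34 had a mean of 0.481 FPKM. Of the genes of mature fat cells, ADIPOQ, CIDEC and LEP were between 0 and 0.230 FPKM in any library, and the highest, LPL, had a mean of 3.73 FPKM. Markers shared by preadipocytes and fibroblasts were thus high, apart from DLK1 and CD34, and genes of mature adipocytes were low. Defining genes of other cell types were near 0, with means of 0.0573 FPKM for the leukocyte gene PTPRC, 0.0970 FPKM for the endothelial gene PECAM1 and 0.157 FPKM for the epithelial gene EPCAM, while KRT18, MYOD1 and SOX10 were listed at 0. The most abundant gene on the leukocyte list was CD14 with a mean of 6.27 FPKM, on the endothelial list VWF with 3.39 FPKM and on the glial list S100B with 4.22 FPKM. ACTA2, a contractile gene that smooth muscle and cultured fibroblasts share, had a mean of 207 FPKM, beside 0.0136 FPKM for the pericyte gene RGS5 and 5.13 FPKM for CSPG4, which pericytes also express.

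All clusters were expressed, and HOXD least. A gene was counted as expressed, and was tested, if its values averaged 0.5 FPKM or more across the 6 libraries, which held for 24 of the 39 HOX genes. They were 8 of 11 in HOXA, 5 of 10 in HOXB, 6 of 9 in HOXC and 5 of 9 in HOXD. The summed level of all HOX genes was 96.5 ± 2.00 FPKM (SD, n = 6 libraries). HOXC held 32.6% of it, HOXA 28.6%, HOXB 27.6% and HOXD 11.3%. The sum of HOXC was 31.4 ± 1.12 FPKM, that of HOXA 27.6 ± 1.30 FPKM, that of HOXB 26.6 ± 2.07 FPKM and that of HOXD 10.9 ± 0.832 FPKM (SD, n = 6 libraries each). The ranges of HOXC and HOXA over the 6 libraries did not overlap, those of HOXA and HOXB did, and HOXD was below every other cluster in every library. The ranges of HOXC and HOXB overlapped too, and in agomir NC replicate 3 the sum of HOXB, 30.3 FPKM, was above that of HOXC, 29.8 FPKM.

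Along the axis, the middle of the clusters carried most of the signal. Paralogue groups 4 to 8 made up 64.2% of the summed HOX level, groups 1 to 3 14.7%, groups 9 and 10 18.6% and groups 11 to 13 2.50%. In that order they hold 15, 8, 7 and 9 genes, so the shares also depend on gene number. The median of the gene means was 2.91, 0.634, 2.08 and 0.0645 FPKM in the same order. Group 6 had the highest sum of any paralogue group, 19.2 ± 0.770 FPKM (SD, n = 6 libraries), followed by group 8 with 13.3 ± 0.797 FPKM. The 10 most abundant HOX genes took between 68.2% and 71.0% of the HOX sum in each library. Even the most abundant, HOXC6, lay only at the 58.5th percentile of the means of all 12422 genes tested.

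**Figure D1:**
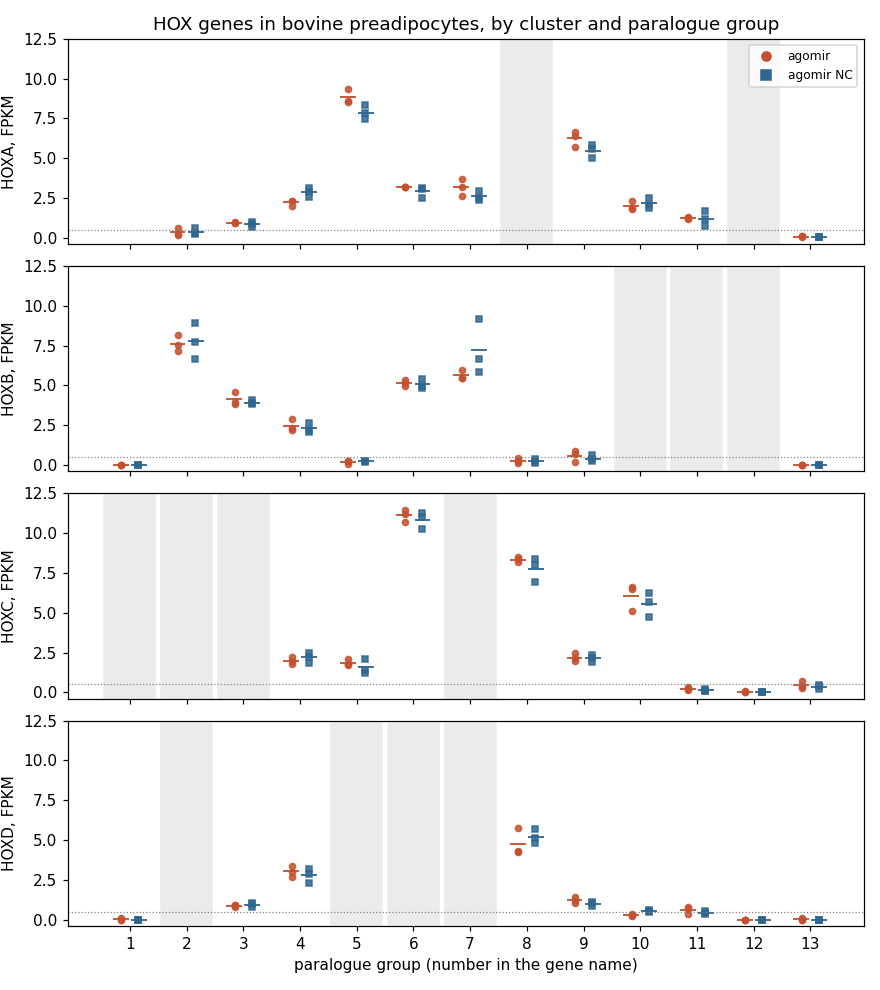
FPKM of the HOX genes reported here in each library, by cluster (panels) and paralogue group (horizontal axis), with agomir libraries as circles, agomir NC libraries as squares and group means as short lines. Grey bands mark groups with no gene in that cluster and the dotted line marks 0.5 FPKM; the highest points are those of HOXC6, between 10.2 and 11.5 FPKM.

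The levels formed a gradual order more than separate classes. Of the 23 pairs of neighbours in the order of the 24 tested genes, 21 had ranges over the 6 libraries that overlapped. The exceptions were HOXC6, above HOXA5 in all 6 libraries, and HOXB3, above HOXA6 in all 6. Below HOXC6 the order ran HOXA5, HOXC8, HOXB2, HOXB7, HOXA9, HOXC10, HOXB6, HOXD8 and HOXB3.

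At the head end, HOXB2, which patterns the hindbrain, had the highest mean of its cluster, though HOXB7 exceeded it in agomir NC replicate 3. HOXB2 measured 8.15, 7.17 and 7.57 FPKM in the agomir libraries and 6.69, 7.73 and 8.94 FPKM in the control libraries. The agomir libraries all lay inside the range of the control libraries, whose replicate 3 was the highest of the 6. Its paralogue HOXA2, which patterns the face and neck, had a mean of 0.366 FPKM. HOXB1, active in the hindbrain of the embryo, was listed at 0 throughout, and HOXD1 was above 0 in 1 library. In group 3, HOXB3 had a mean of 4.03 FPKM, against 0.904 FPKM for HOXA3, which shapes the glands of the neck, and 0.903 FPKM for HOXD3.

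Group 4 genes, which act in the neck vertebrae, were expressed from all 4 clusters, with means between 2.09 and 2.91 FPKM. HOXD4 measured 3.39, 2.70 and 3.00 FPKM in the agomir libraries and 2.89, 3.16 and 2.30 FPKM in the control libraries. The groups overlapped, with the highest value in agomir replicate 1 and the lowest in agomir NC replicate 3. HOXA4 had a mean of 2.54 FPKM, HOXB4 of 2.40 FPKM and HOXC4 of 2.09 FPKM. Group 5 was uneven, since HOXA5, needed for the neck and upper chest skeleton and the lung, had a mean of 8.35 FPKM, HOXC5 1.72 FPKM and HOXB5 only 0.205 FPKM.

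The chest-level genes of groups 6 to 8 included the most abundant HOX gene, HOXC6. HOXC6 measured 10.7, 11.2 and 11.5 FPKM in the agomir libraries and 11.2, 11.03 and 10.2 FPKM in the control libraries. These values overlapped and differed little, with agomir NC replicate 3 the lowest. HOXB6 measured 5.33, 5.00 and 5.13 FPKM in the agomir libraries and 4.97, 5.41 and 4.87 FPKM in the control libraries, and the 2 ranges overlapped. HOXC8, which sets the form of the ribs and restrains brown fat formation in mice, measured 8.19, 8.36 and 8.47 FPKM in the agomir libraries and 6.91, 8.03 and 8.38 FPKM in the control libraries. Agomir NC replicate 1 was the lowest of these 6, and the other values overlapped between the groups. HOXD8 measured 5.75, 4.29 and 4.23 FPKM in the agomir libraries and 4.79, 5.70 and 5.09 FPKM in the control libraries. Agomir replicate 1 and agomir NC replicate 2 were both high, so the groups overlapped. HOXA7 had a mean of 2.89 FPKM, while HOXB8, next to HOXB7 in its cluster, had 0.262 FPKM.

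Groups 9 and 10, which act in the loin and the upper limb, were expressed mainly from HOXA and HOXC. HOXA9 measured 6.68, 6.40 and 5.69 FPKM in the agomir libraries and 4.99, 5.60 and 5.81 FPKM in the control libraries. Agomir NC replicate 3 was above agomir replicate 3, so the groups overlapped. HOXC10 measured 6.48, 6.63 and 5.11 FPKM in the agomir libraries and 6.22, 5.69 and 4.75 FPKM in the control libraries, and replicate 3 was the lowest library of either group. HOXD9 measured 1.07, 1.26 and 1.39 FPKM in the agomir libraries and 1.10, 0.837 and 1.05 FPKM in the control libraries. Agomir NC replicate 1 was above agomir replicate 1, and the groups overlapped there. HOXC9, widely used as a marker of white fat, had a mean of 2.17 FPKM and HOXA10 of 2.08 FPKM.

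Near the limit of 0.5 FPKM lay HOXD11, just inside with a mean of 0.517 FPKM, and HOXB9, just outside with 0.4996 FPKM. HOXD10 had a mean of 0.421 FPKM and HOXC13, a gene of hair and nails, 0.406 FPKM. HOXA11, a gene of the forearm and uterus, was the only member of groups 11 to 13 with a mean above 1 FPKM, at 1.21 FPKM. Its paralogue HOXC11 had 0.186 FPKM. HOXA13, which acts in the digits, was above 0 in all 6 libraries but with a mean of 0.0645 FPKM. HOXC12, HOXD1 and HOXD13 were above 0 in 1 library each, at no more than 0.0851 FPKM. HOXB1, HOXB13 and HOXD12 were listed at 0 in all 6 libraries. Since the depth of the libraries is unknown, a listed 0 does not show that a gene was silent.

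The clusters were then compared with the nearest named protein-coding genes outside them. All 39 HOX genes had a match by symbol in the RefSeq table of ARS-UCD2.0, which was used for names and for order only, since the files were made on ARS-UCD1.2 according to the submitters' processing notes. Beyond HOXA13 lies EVX1 and beyond HOXD13 lies EVX2, homeobox genes of the tail end, and both were listed at 0 in all 6 libraries. At the other end of HOXD, beside HOXD1, lies MTX2, with 14.2 ± 1.14 FPKM (SD, n = 6 libraries). HOXC lies between SMUG1 beside HOXC4, with 7.29 ± 0.517 FPKM, and CALCOCO1 beside HOXC13, with 13.6 ± 0.516 FPKM. For HOXB, SKAP1 beside HOXB1 and TTLL6 beside HOXB13 were each above 0 in 1 library. The low values at the HOXD1 end therefore lay next to an expressed gene outside the cluster, and those at the HOXA13 and HOXD13 ends next to genes listed at 0.

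Some HOX values are uncertain because genes overlap. In RefSeq, 8 pairs of HOX genes have overlapping spans, and 12 HOX genes belong to such a pair. HOXA5 overlaps HOXA6 and HOXA3, HOXA3 overlaps HOXA4, HOXB3 overlaps HOXB4, HOXB5 and HOXB6, HOXB8 overlaps HOXB9, and HOXD3 overlaps HOXD4. RefSeq also places 11 long noncoding RNA genes within the clusters, 4 of them over HOX genes, and these were not analysed here. Whether fragments were assigned by strand is not stated, so reads of a HOX gene and of an antisense partner cannot be told apart. In bulk RNA, fewer cells expressing a gene and less RNA per cell cannot be told apart either.

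No HOX gene passed the adjusted threshold between the agomir and the agomir NC. The comparison addresses whether added bta-miR-484 alters the positional pattern of the cells. Values were taken as log2(FPKM + 0.5) and compared by limma's moderated test, two-sided, over all 12422 genes that averaged 0.5 FPKM or more. On that scale, fold changes of weakly expressed genes come out too small. Of the 24 HOX genes tested, 0 had an adjusted p under 0.05 in limma, beside 0.00805% of all genes tested, which is 1 gene (TRAPPC4, named after its values were seen). The lowest adjusted p of a HOX gene was 0.379. At an unadjusted p under 0.05, 0 HOX genes were higher with the agomir, where the background is 6.63% of all genes tested, and 2 were lower, HOXA4 and HOXB7, which is 8.33% of the HOX genes tested beside a background of 4.31%. The 824 higher and 535 lower genes behind these percentages became 673 and 688 with median-ratio scaling of the libraries. Leaving out single libraries changed which HOX genes were under an unadjusted p of 0.05. None was without agomir replicate 2. HOXD8 and HOXD11, at log2 fold changes of −0.25 and 0.41, and HOXB9, which then passed the filter, at 0.53, were under it without agomir replicate 1. So were HOXA7 and HOXA9, at 0.34 and 0.24, without agomir replicate 3, and HOXC5, at 0.38, without agomir NC replicate 1. The control means of HOXD11 and HOXB9, 0.424 and 0.403 FPKM, were below the filter, which these genes passed only through their agomir libraries. The filter therefore favors a positive fold change in these genes, and nothing is concluded from theirs.

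HOXA4, a gene of the neck vertebrae, measured 2.34, 2.02 and 2.33 FPKM in the agomir libraries and 3.13, 2.58 and 2.87 FPKM in the control libraries. Every agomir library was below every control library, and agomir NC replicate 1 was the highest of the 6. Its log2 fold change was −0.30 (standard error 0.107, limma adjusted p = 0.379). A two-sided exact permutation of the libraries gave p = 0.1, which is as low as a design of 3 and 3 libraries can go. The log2 fold change was −0.24 without agomir replicate 2 and −0.24 without agomir NC replicate 1, and in both cases the unadjusted limma p was above 0.05. Its neighbours in the cluster, HOXA3 and HOXA5, had log2 fold changes of 0.10 and 0.16, opposite in sign. The value of HOXA3 was 0.02 without agomir NC replicate 2 and 0.17 without agomir NC replicate 1.

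HOXB7, a chest-level gene, measured 5.45, 5.47 and 5.99 FPKM in the agomir libraries and 5.83, 6.67 and 9.16 FPKM in the control libraries. Agomir NC replicate 3 was far above the other 5 libraries, and agomir replicate 3 was above agomir NC replicate 1, so the groups overlapped. Its log2 fold change was −0.31 (standard error 0.138, limma adjusted p = 0.456), and a two-sided exact permutation of the libraries gave p = 0.2. Without agomir NC replicate 3 the log2 fold change was −0.14, and with any other single library left out it lay between −0.44 and −0.29. The unadjusted limma p was under 0.05 when agomir NC replicate 1 was left out, and above 0.05 when any other single library was. It was also above 0.05 with a pseudocount of 1, without the filter, without the variance trend and with array weights, where the log2 fold change lay between −0.31 and −0.28. For its paralogue HOXA7 the log2 fold change was 0.23 with a standard error of 0.130, opposite in sign, and it was 0.12 without agomir replicate 1 and 0.34 without agomir replicate 3.

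Groups that did not overlap were also few. All agomir libraries were above all agomir NC libraries in 2 of the 24 tested HOX genes, HOXA5 and HOXA6, which is 8.33% beside 10.9% of all genes tested. All were below in 1, HOXA4, which is 4.17% beside 6.36%. HOXA5 measured 8.57, 9.37 and 8.52 FPKM in the agomir libraries and 7.84, 8.32 and 7.45 FPKM in the control libraries. The gap between the nearest libraries of the 2 groups was small beside the spread within each, and the log2 fold change was 0.16 (standard error 0.0726, limma adjusted p = 0.477). Without agomir NC replicate 2 it was 0.19, with an unadjusted limma p under 0.05. HOXA6, whose span overlaps that of HOXA5, measured 3.17, 3.22 and 3.20 FPKM in the agomir libraries and 3.07, 3.15 and 2.53 FPKM in the control libraries. Agomir NC replicate 3 was set apart below the other 5 libraries, which were close together, and the log2 fold change was 0.12 (standard error 0.101). Without agomir NC replicate 3 it was 0.03.

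**Figure D2:**
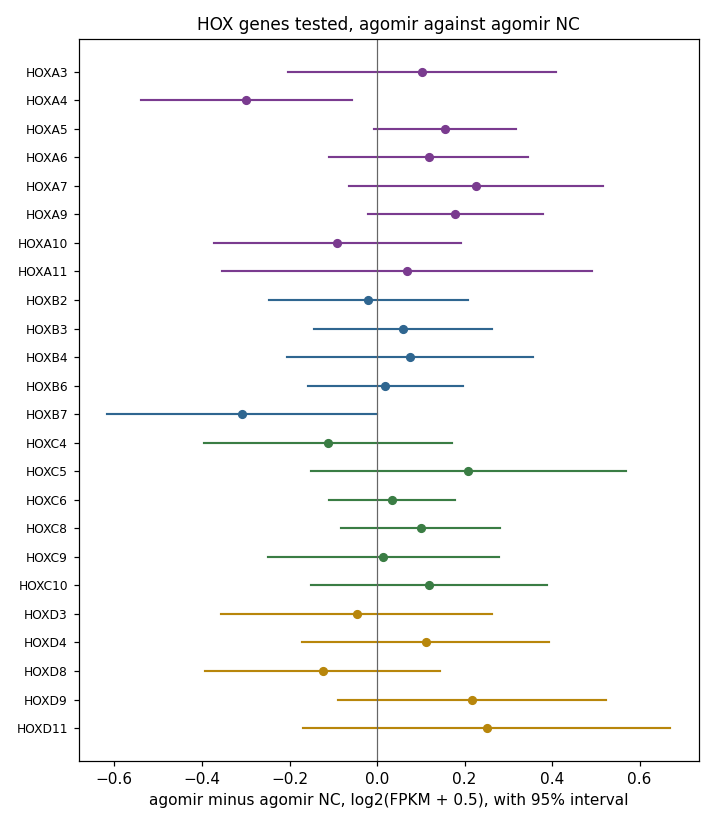
Log2 fold change of each of the 24 tested HOX genes on the log2(FPKM + 0.5) scale, agomir minus agomir NC, as points with 95% intervals from limma, colored by cluster. The interval includes 0 for 22 genes and lies below 0 for HOXA4 and HOXB7; no interval is adjusted for the number of genes tested.

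Across the 24 genes, 17 log2 fold changes were positive and 7 negative, beside 6840 positive and 5582 negative among the 12422 genes. The median of the 24 was 0.07 against 0.01 over all genes tested, and the median size was 0.11 against 0.08. These counts and medians include HOXD11, at 0.25, which passed the filter only through its agomir libraries. With a filter at 1 FPKM, which leaves HOXD11 out, 21 HOX genes were tested and their median was 0.07. The median standard error of a HOX gene was 0.123, larger than the median size of its fold change, and 0.0838 over all genes tested. The median of the HOX genes stayed between 0.04 and 0.10 under every alternative setting, scaling included, and was lowest without agomir NC replicate 3. For 22 of the 24 genes the 95% interval of the log2 fold change included 0. The widest of the 24 intervals was that of HOXA11, −0.35 to 0.49, and the narrowest that of HOXC6, −0.11 to 0.18. A p that misses the threshold does not show that the groups were alike.

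HOX genes are short. When the 11255 of 12422 tested genes with a RefSeq span matched by symbol were divided by span into 5 classes of 2251 genes, 15 of the 24 HOX genes fell in the shortest class, whose median span was 4.28 kb. The median log2 fold change was −0.02 in that class and 0.04 in the class of the longest genes. With this trend removed from each library over those genes, an alternative chosen after seeing the data, the median of the HOX genes was 0.09. HOXA9 then had a log2 fold change of 0.20 and an unadjusted limma p under 0.05, and HOXB7, at −0.28, was no longer under it.

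By cluster, the median log2 fold change was 0.11 over the 8 tested HOXA genes, 0.02 over 5 HOXB genes, 0.07 over 6 HOXC genes and 0.11 over 5 HOXD genes. The HOXD median includes HOXD11, which passed the filter only through its agomir libraries. HOXD3, HOXD4, HOXD8 and HOXD9 were at −0.05, 0.11, −0.12 and 0.22. The summed level of HOXA was 29.5, 28.8 and 27.2 FPKM in the agomir libraries and 27.0, 26.4 and 26.4 FPKM in the control libraries. That of HOXC was 31.8, 33.0 and 32.0 FPKM in the agomir libraries and 31.2, 30.7 and 29.8 FPKM in the control libraries. In these 2 clusters every agomir library was above every control library, with ratios of the group means of 1.07 and 1.06. For HOXA the nearest libraries of the groups were close, agomir replicate 3 at 27.2 FPKM and agomir NC replicate 1 at 27.0 FPKM. The summed level of HOXB was 25.5, 25.9 and 26.8 FPKM in the agomir libraries and 24.2, 27.2 and 30.3 FPKM in the control libraries. The sum of HOXD was 12.0, 10.1 and 10.6 FPKM in the agomir libraries and 10.4, 11.9 and 10.3 FPKM in the control libraries. Both overlapped between the groups, and their ratios were 0.957 for HOXB, with agomir NC replicate 3 the highest library, and 1.00 for HOXD. The HOXB ratio was 1.01 without agomir NC replicate 3, and the HOXD ratio was 0.991 with median-ratio scaling. Over all HOX genes the sum was 98.8, 97.8 and 96.6 FPKM in the agomir libraries and 92.9, 96.2 and 96.8 FPKM in the control libraries, with overlap. These sums were described and not tested.

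Among the HOX genes below the filter, which had no limma test, HOXD10 measured 0.356, 0.314 and 0.243 FPKM in the agomir libraries and 0.544, 0.628 and 0.443 FPKM in the control libraries. Its agomir libraries were all below the control libraries, a gene singled out after its values were seen. By exact permutation its two-sided p was 0.1, again the lowest possible. Without the filter, the log2 fold change was −0.37, past an unadjusted limma p of 0.05 but with a limma adjusted p of 0.466. HOXA13 went the other way, with all agomir libraries above the control libraries and all values under 0.1 FPKM. These were 1 gene in each direction of the 12 HOX genes that were below the filter and above 0 in a library, beside 3.36% of all such genes with the agomir below and 3.44% with the agomir above.

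Genes that work with HOX proteins or set their expression were taken as fixed lists. HOX proteins bind DNA together with TALE homeodomain proteins, and the list of these cofactors held the PBX, MEIS and PKNOX genes. All 9 genes of that list were tested. At an unadjusted limma p under 0.05, 1 was higher and 0 lower, beside 6.63% higher and 4.31% lower of all genes tested. MEIS2, PBX2 and MEIS1 were the most abundant, with means of 12.8, 10.8 and 10.6 FPKM. PBX3 measured 6.29, 6.61 and 6.36 FPKM in the agomir libraries and 5.94, 5.32 and 4.24 FPKM in the control libraries, without overlap (log2 fold change 0.30, limma adjusted p = 0.385). It was no longer under an unadjusted p of 0.05 without agomir NC replicate 3, where the log2 fold change was 0.18, or without agomir replicate 2, where it was 0.28.

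Polycomb proteins keep silent HOX genes silent, and Trithorax proteins keep active ones active. Of 27 Polycomb genes tested, 1 was higher, RNF2 (log2 fold change 0.22, limma adjusted p = 0.413), and 0 were lower at an unadjusted limma p under 0.05, where 6.63% of all genes tested were higher and 4.31% lower. RNF2 was not under it without agomir replicate 2, agomir replicate 3 or agomir NC replicate 1, with log2 fold changes of 0.15, 0.20 and 0.18, nor without the filter or without the variance trend. Of 20 Trithorax and other HOX-activating genes, 6 were higher and 0 lower at that p, beside the background of 6.63% higher, and 19 of the 20 log2 fold changes were positive, with a median of 0.08 against 0.01 over all genes tested. The 6 genes were ASH2L, KMT2D, RBBP5, KMT2A, DOT1L and KMT2B, and KMT2D had the highest log2 fold change of the list, 0.38 (limma adjusted p = 0.326). The lowest adjusted p of the list was 0.306, that of KMT2B. The list summed to 230.0, 243.7 and 235.9 FPKM in the agomir libraries and 225.1, 224.5 and 209.0 FPKM in the control libraries. These sums did not overlap, but agomir NC replicate 3 was set apart below the other libraries. The part of that library in the positive fold changes of the list was not tested. KMT2A was not under an unadjusted p of 0.05 without agomir replicate 2, agomir replicate 3 or agomir NC replicate 3, with log2 fold changes of 0.16, 0.20 and 0.13. It was also not under it with median-ratio scaling, at 0.19, with quantile normalization, at 0.18, with the gene span trend removed, at 0.17, without the filter or without the variance trend. KMT2D was at 0.23 without agomir NC replicate 3, and leaving out single libraries moved none of the other 5 across it.

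Retinoic acid sets the head-end limits of HOX expression in the embryo. Of its 20 pathway genes, 14 were tested, with 4 higher and 3 lower at an unadjusted limma p under 0.05, beside 6.63% higher and 4.31% lower of all genes tested. The higher ones were RXRB, NR2F1, ALDH1A1 and CYP26B1, and the lower ones included CRABP2 and DHRS3. Leaving out single libraries took RXRB, NR2F1, CYP26B1 and DHRS3 across that limit, but not ALDH1A1 or CRABP2. RXRB was at 0.15 without agomir replicate 3 and 0.22 without agomir NC replicate 1, and CYP26B1 at 0.35 and 0.28 without replicate 1 of the agomir and of the agomir NC. NR2F1 was between 0.16 and 0.18 without agomir replicate 2 or 3 or agomir NC replicate 1 or 2, and DHRS3 between −0.26 and −0.17 without agomir replicate 1 or 2 or agomir NC replicate 2 or 3. Without the filter CYP26B1 and DHRS3 were not under the limit either, nor was DHRS3 without the variance trend or with array weights. CRABP2, which carries retinoic acid to the nucleus, measured 20.4, 15.9 and 18.1 FPKM in the agomir libraries and 25.2, 20.4 and 26.1 FPKM in the control libraries, a log2 fold change of −0.39 (limma adjusted p = 0.306).

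Other homeobox and T-box genes of body position gave 0 higher and 2 lower at an unadjusted limma p under 0.05 among 19 tested of 46, PRRX2 and SIX2, where 6.63% of all genes tested were higher and 4.31% lower. PRRX1 and PRRX2, genes of limb and skin mesenchyme, had means of 217 and 131 FPKM, above every HOX gene. PRRX2 measured 122, 113 and 122 FPKM in the agomir libraries and 158, 132 and 141 FPKM in the control libraries, without overlap (log2 fold change −0.27, limma adjusted p = 0.257). Of these 46 genes, 13 were listed at 0 in all libraries, among them CDX2, CDX4, TBX4 and TBX5. Of 24 genes named as neighbours of the clusters in mammals, 22 were in the table and 17 were tested, with 0 higher and 0 lower at an unadjusted limma p under 0.05. Of the 6 adipocyte markers, 3 were tested and their list summed to 7.05, 7.97 and 6.66 FPKM in the agomir libraries and 8.51, 7.29 and 7.95 FPKM in the control libraries, with overlap. Among all cell type markers, DCN, NT5E and FABP4 were lower at an unadjusted limma p under 0.05, beside 4.31% of all genes tested. Their log2 fold changes were −0.12, −0.25 and −0.49, with limma adjusted p of 0.376, 0.209 and 0.363. DCN and NT5E were 2 of 8 tested preadipocyte and fibroblast markers, and FABP4 was 1 of 3 tested adipocyte markers. FABP4 overlapped between the groups. The part of these 3 genes in the HOX values was not tested.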

How the data were processed

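The deposited values are FPKM for each gene in 6 libraries, scaled to transcript length and mapped fragments by the authors. The submitters' processing notes name fastp, HISAT2, StringTie and the build ARS-UCD1.2. The table holds no counts and ratios of low values did not fall into whole-read steps, so depth is unknown and no counting error can be given. From these values, limma 3.58.1 in R 4.3.3 compared the groups on log2(FPKM + 0.5), where 0.5 is a pseudocount, for the 12422 genes averaging 0.5 FPKM or more, with a variance trend and no term for replicate number. Two-sided p-values were adjusted over all genes tested (Benjamini-Hochberg). An exact permutation test over the 20 labelings of the libraries was added for single genes. The script was tested on simulated data.

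Values in every library are given for the 3 HOX genes of highest mean in each cluster and for those with an unadjusted limma p under 0.05, and other HOX genes by mean or range. HOXD10, singled out after its values were seen, was an exception and is given in every library. From each other list, the 3 highest genes and those under that p could be named. Cell type markers, genes listed at 0 and genes next to the clusters were also named outside this rule. The members and lists were chosen with earlier results of these data known. Alternatives were a pseudocount of 0.1 or 1, a filter at 1 FPKM or none, quantile normalization or median-ratio scaling, array weights, a fit without the variance trend, a block for replicate number, leaving out single libraries and, chosen after seeing the data, removal of a trend with gene span. The miRNAs within the HOX clusters and the sequence of bta-miR-484 were not analysed here, and some genes of these lists are not reported here.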

Additional observations from a re-analysis of the deposited data

How the results depend on the processing

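No HOX gene passed an adjusted p of 0.05 in limma under any alternative. The count of all genes past it, 1, was 0 without the filter, 0 without the variance trend and between 0 and 2 with a library left out. The 2 HOX genes lower at an unadjusted p under 0.05 became 1 with a pseudocount of 1, 1 without the variance trend, 1 with array weights and between 0 and 2 with a library left out. The HOX genes higher at that p, 0, were between 0 and 2 with a library left out. With the gene span trend removed, 1 HOX gene was higher and 1 lower. The cause was not tested, except that fewer libraries entered the fits with one left out. Of the log2 fold changes of tested HOX genes over the alternatives, 360 kept their side of an unadjusted p of 0.05, 12 lost it, 10 of them of HOXB7 and 2 of HOXA4, and 7 gained it. With a limit of 1 FPKM and values above 0 in all libraries, expressed HOXD genes were 3 in place of 5 and HOXA genes 7 in place of 8, while HOXB stayed at 5 and HOXC at 6.

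The replicate numbers are not said to pair the libraries, and the deviations of same-numbered libraries correlated at −0.0506, 0.0532 and 0.0387. With 3 libraries a group, these values cannot show whether the libraries were paired. With the replicate block, 0 genes passed an adjusted p of 0.05. The unknown depth limits statements on HOX genes under 0.5 FPKM, and 3 libraries a group limit the exact test to p = 0.1.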
